A study of Homo sapiens with 8 samples.

Results

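The 39 genes described here encode enzymes of glycolysis, lactate dehydrogenase, the pyruvate dehydrogenase complex and the TCA cycle, and the 2 aspartate aminotransferases. They were chosen by gene symbol from a fixed list, and all 39 were found among the 60606 genes of the count table. Of these, 17 belong to glycolysis and lactate dehydrogenase and 22 to what is here called the mitochondrial side. It takes in pyruvate entry, the TCA cycle and the aminotransferases. It also holds the cytosolic enzymes IDH1, ACO1, GOT1 and MDH1, so counts and medians given as mitochondrial are not of mitochondrial enzymes alone. The cells were HEK293, an established line from human embryonic kidney grown in high-glucose medium with pyruvate and serum. The treated cells received a synthetic copy (mimic) of the tRNA-Asp-GTC 3' tDR, a tRNA-derived small RNA, and the control cells (Ctrl) with a scrambled sequence. Each mimic was used at 50 nM with a lipid reagent, the cells were collected after 48 hours, and total RNA was sequenced from 4 libraries a group. All libraries come from 1 cell line, and the labels do not say whether they are cultures of their own, so the p-values reflect the spread of these 8 libraries alone, possibly a technical one.

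Glycolysis splits glucose into pyruvate in the cytosol and yields ATP and NADH, and lactate dehydrogenase turns pyruvate into lactate while restoring NAD+. Pyruvate that enters mitochondria is made into acetyl-CoA by the pyruvate dehydrogenase complex or into oxaloacetate by pyruvate carboxylase, and the TCA cycle oxidises acetyl-CoA to carbon dioxide. Many glycolytic genes and LDHA are known targets of the hypoxia-inducible factor HIF-1, and the study's title calls this tDR hypoxia-responsive.

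HIF-1 is known to bind a core written as ACGTG or GCGTG. The 250 bases before the transcription start are shown for ENO1, LDHA and PDHB, the 3 member genes with the smallest p, because they let this core be seen in genes that were lower together. The sequences are from RefSeq on GRCh38.p14, 5′ to 3′ on the strand of the gene, and capitals mark each match to either core on either strand:
ENO1, chr1:8878687-8878936, minus strand: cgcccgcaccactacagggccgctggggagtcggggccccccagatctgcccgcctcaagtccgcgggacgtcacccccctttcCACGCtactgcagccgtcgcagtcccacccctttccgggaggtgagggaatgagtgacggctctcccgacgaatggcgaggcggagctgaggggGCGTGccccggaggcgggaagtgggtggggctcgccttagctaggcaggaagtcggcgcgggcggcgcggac
LDHA, chr11:18394313-18394562, plus strand: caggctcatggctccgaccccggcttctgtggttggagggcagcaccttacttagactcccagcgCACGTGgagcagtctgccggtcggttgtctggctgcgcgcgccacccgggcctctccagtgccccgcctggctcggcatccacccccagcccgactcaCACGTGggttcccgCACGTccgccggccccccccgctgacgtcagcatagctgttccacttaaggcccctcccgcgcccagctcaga
PDHB, chr3:58433833-58434082, minus strand: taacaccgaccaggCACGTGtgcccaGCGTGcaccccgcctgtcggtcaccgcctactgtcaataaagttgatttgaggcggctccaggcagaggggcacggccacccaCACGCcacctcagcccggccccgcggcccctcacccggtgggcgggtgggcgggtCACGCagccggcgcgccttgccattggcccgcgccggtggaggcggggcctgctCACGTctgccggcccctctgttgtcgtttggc
The 3 windows held 2, 5 and 6 matches in ENO1, LDHA and PDHB, where a CACGTG counts once on each strand and is also the letters of an E-box. LDHA has a second RefSeq start with a window of its own, not printed, which held 1 match. A window was listed for 38 of the 39 members, and 29 of these (76.3%) held at least 1 match in any of their windows. Of all 27305 genes with a window 47.4% did, and of the 11750 tested genes with a window 62.4% did. The core was present for 12 of the 16 members that were lower and for 15 of the 18 other tested members with a window. A match is only a run of letters and does not show a bound site.

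Of the 39 genes 35 had enough counts to be tested, and 16 of these fell in the cells given the tDR while 0 rose (edgeR, quasi-likelihood F test, adjusted over all 17184 genes tested by Benjamini-Hochberg, p under 0.05). The same test called 11.4% of all tested genes lower and 12.8% higher. No member rose at an unadjusted p under 0.05 either, and DESeq2 called 18 lower and 0 higher. Over all genes DESeq2 leaned to lower calls, with 2184 lower and 1441 higher, where edgeR gave 1962 lower and 2206 higher. The falls were small, with log2 fold changes (tDR over Ctrl) of -0.16 to -0.40 among the called genes, and 32 of the 35 genes had a value below 0. The median of the 35 was -0.13, against 0.02 over all genes tested. Most members are abundant, and abundant genes as a whole were lower in these libraries: among the 4296 tested genes with the highest level (above 63.7 CPM, a count scaled to library size), which include 27 of the 35 members, 31.6% were called lower, 4.75% higher and the median was -0.09. In 15 of the 35 members all 4 tDR libraries lay below all 4 Ctrl libraries, a pattern found in 10.8% of all tested genes and in 29.3% of the most abundant 4296. In 0 members did they all lie above, a pattern found in 11.8% and 4.35% of these genes. Whether the level of the genes plays a part in their falls was not tested.

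**Figure D1:**
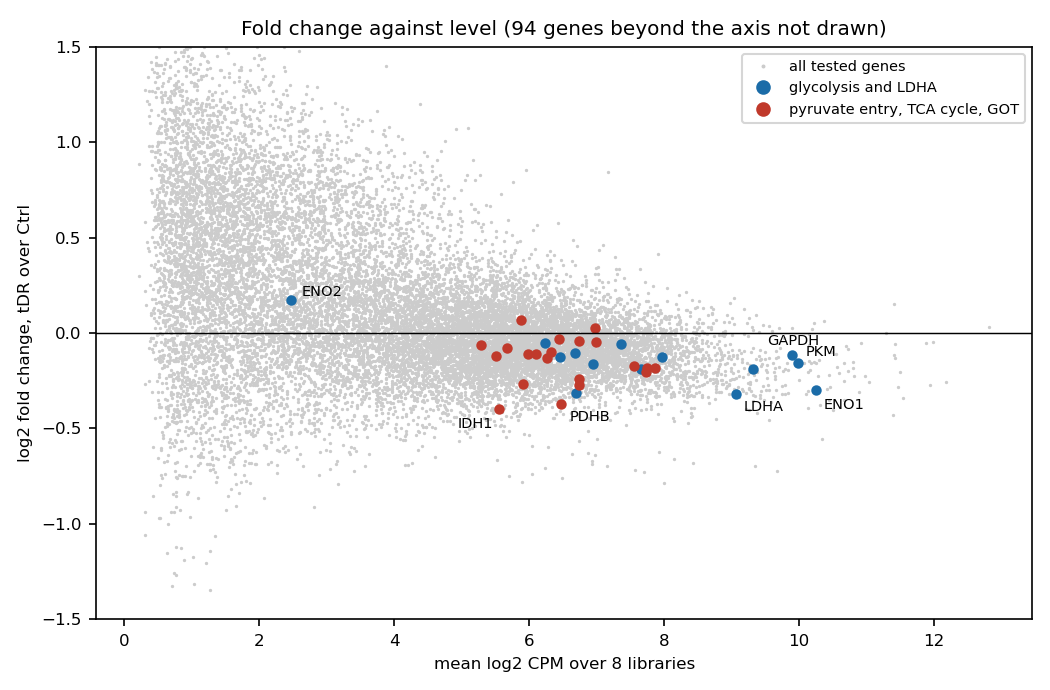
Log2 fold change (tDR over Ctrl) against mean log2 CPM for every tested gene (grey), with the glycolytic genes and LDHA in blue and the mitochondrial side in red. Most members lie to the right, with ENO2 the lowest in level, and 32 of 35 are below 0. The median of all tested genes is 0.02, and that of the 4296 most abundant ones is -0.09. The 94 genes beyond ±1.5 are not drawn.

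The number of calls rests on how the libraries are scaled. With TMM scaling, which assumes that most genes do not change, 16 members were lower; with library size alone 7 were lower and 0 higher, and the median of the 35 was -0.04. Over all genes the split was 2206 higher and 1962 lower with TMM and 3295 higher and 907 lower with library size alone. The change of scaling moved the median of all tested genes to 0.10 and shifts all genes by about the same amount. The glycolytic median thus lay 0.16 below the median of all genes and the mitochondrial median 0.14 below it under either scaling. The 4296 most abundant tested genes had a median of -0.09 with TMM, nearer to the glycolytic (-0.14) and mitochondrial (-0.12) medians. They include 13 of the 14 tested glycolytic genes and 14 of the 21 on the mitochondrial side. The 7 genes lower under every alternative tried were PGAM1, ENO1, LDHA, PDHB, DLAT, DLD and IDH1.

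Library totals ran between 5848305 and 9237986 counts in tDR and between 6536554 and 10557740 in Ctrl. Control replicate 1 stood apart from the other controls, with a chi-square per degree of freedom of 3.66 to 4.88 against them and 2.15 to 3.14 among the other controls, and it was the lowest control for 19 of the 35 members. Without it 18 members were lower, 9 on each side. HEK293 markers were present, among them VIM at 161 and 149.7 CPM by library total (tDR and Ctrl means), KRT18 at 33.7 and 29.02, PAX2 at 22.1 and 15.4, INA at 20.6 and 17.6, and KRT8 at 11.9 and 7.29. Of 6 markers of other cell types CD68 was at 0 in all libraries, and 4 of the other 5 averaged higher in tDR, with COL1A1 at 26.7 and 16.1, PECAM1 at 4.37 and 1.34, PTPRC at 3.61 and 2.45, and ALB at 0.348 and 0.0800 (tDR and Ctrl means), while COL3A1 stood at 2.67 and 2.66. Their part in the results was not tested. In bulk RNA, fewer cells of a kind and less RNA per cell cannot be told apart.

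**Figure D2:**
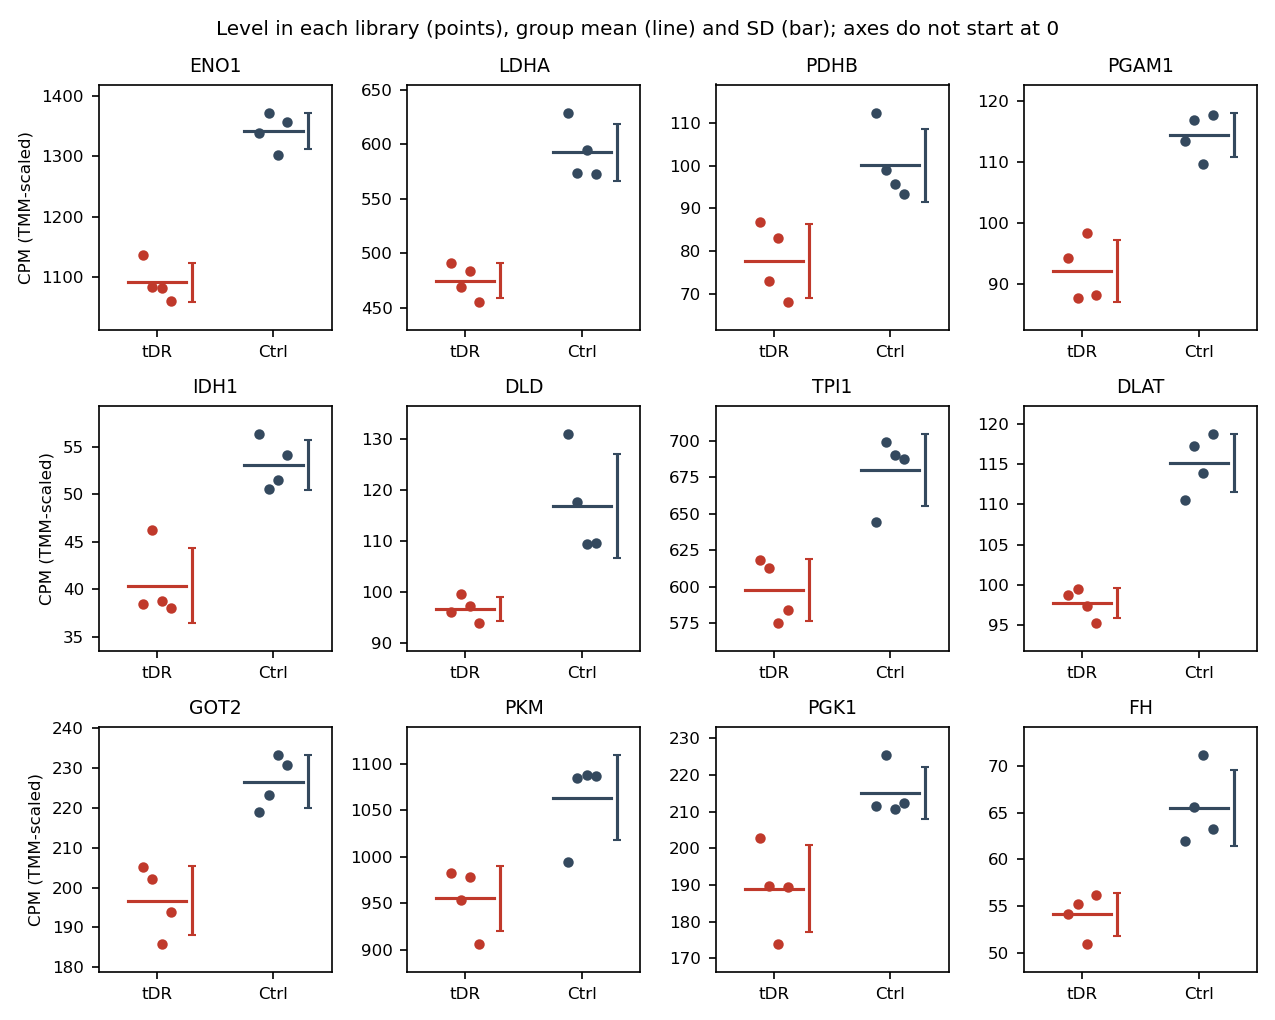
CPM scaled by TMM in each library (points), with the group mean (line) and SD (bar), for the 12 called members with the smallest p, tDR left of Ctrl. In all 12 the highest tDR library is below the lowest Ctrl library, a pattern that choosing genes by smallest p favours. It was found in 10.8% of all tested genes and in 29.3% of the 4296 most abundant ones.

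The largest glycolytic falls were in the later, triose phase, where the pathway earns its ATP, and in lactate dehydrogenase. Of the 6 triose-phase genes 4 fell, and LDHA fell as well. LDHA and 5 of these 6 lie among the 4296 most abundant tested genes, of which 31.6% were called lower. ENO1 (chromosome 1, 8861000 to 8879250), the enolase that makes phosphoenolpyruvate, stood at 1137, 1083, 1082 and 1061 CPM in tDR libraries 1 to 4 and at 1338, 1372, 1303 and 1357 CPM in Ctrl libraries 1 to 4. All tDR libraries were below all Ctrl libraries, and the groups were separated by a gap wider than the spread within either. Its log2 fold change was -0.30 ± 0.041 (SE; edgeR adjusted p = 1.2e-07), a level 18.8% lower by the fit (-18.8%).

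LDHA (chromosome 11, 18394388 to 18408425), the lactate dehydrogenase subunit common in tissues that make lactate, stood at 491, 469, 484 and 455 CPM in the tDR libraries, against 629, 574, 595 and 573 CPM in Ctrl. The groups did not overlap, and Ctrl replicate 1 was the highest. The log2 fold change was -0.32 ± 0.045 (SE; edgeR adjusted p = 2.17e-07). PGAM1, the phosphoglycerate mutase before enolase, had 94.3, 87.8, 98.4 and 88.2 CPM in tDR and 113, 117, 109.7 and 118 CPM in Ctrl (log2 fold change -0.31 ± 0.060, SE; edgeR adjusted p = 7.63e-05). Its groups were also apart, and its 13 pseudogene copies in the table held counts equal to 3.88% of its own. These copies held 155 counts in tDR and 104 in Ctrl, and their part in the fall was not tested.

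PGK1, which makes the first ATP of glycolysis, stood at 203, 189.7, 174 and 189.6 CPM in tDR and at 212, 225, 211 and 212 CPM in Ctrl (log2 fold change -0.19 ± 0.052, SE; edgeR adjusted p = 0.00521). PKM, the muscle-type pyruvate kinase that makes the last, had 982, 954, 979 and 906 CPM in tDR and 995, 1085, 1088 and 1086 CPM in Ctrl (-0.16 ± 0.043, SE; edgeR adjusted p = 0.00509). In PKM the lowest control, replicate 1, lay just above the highest tDR library. Gene counts do not separate the PKM1 and PKM2 splice forms. Both calls ended with scaling to library size alone (PGK1 -0.11, PKM -0.07) and with an estimated background subtracted (-0.15 and -0.10).

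GAPDH, the dehydrogenase often used as a reference gene, had 930.5, 935, 911 and 874 CPM in tDR and 865, 1055, 994 and 1042 CPM in Ctrl. The groups overlapped because Ctrl replicate 1 was below all 4 tDR libraries, and the log2 fold change of -0.12 ± 0.046 did not pass (SE; edgeR adjusted p = 0.0584). Without Ctrl replicate 1 it was -0.18 and passed (edgeR adjusted p = 0.000193). It also passed with length and GC content corrected for (-0.13, and -0.10 with gene span as the length), with DESeq2 (-0.15), with no filter on low counts (-0.15) and without tDR replicate 1 (-0.13). Its 65 pseudogene copies in the table held 0.929% as many counts as the gene (303 in tDR and 264 in Ctrl). ENO2, the neuronal enolase, was the rarest tested member at 6.94, 5.89, 3.11 and 6.71 CPM in tDR and 5.91, 4.89, 5.40 and 3.93 CPM in Ctrl. Its groups overlapped (log2 fold change 0.17, edgeR adjusted p = 0.645), and background could make up as much as 8.18% of its counts in a library.

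In the hexose phase, where ATP is spent, 2 of 7 tested genes fell (28.6%). All 7 lie among the 4296 most abundant tested genes, of which 31.6% were called lower, so this share is near theirs. TPI1, which interconverts the 2 triose phosphates, stood at 619, 613, 575 and 584 CPM in tDR and at 644, 699, 690.5 and 688 CPM in Ctrl. The groups did not overlap, with a log2 fold change of -0.19 ± 0.044 (SE; edgeR adjusted p = 0.00104), and the call ended with library size alone (-0.10). HK2, the inducible hexokinase of the first step, averaged 116 ± 3.96 CPM in tDR and 130.0 ± 3.204 CPM in Ctrl (SD, n = 4 each; log2 fold change -0.16, edgeR adjusted p = 0.0298). Its call was the least secure of the glycolytic ones: it ended with library size alone (-0.08), with background subtracted (-0.11), without Ctrl replicate 4 (-0.17), and without tDR replicate 1, 3 or 4 (-0.15, -0.17 and -0.16).

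The other 5 tested hexose-phase genes did not pass, with log2 fold changes between -0.13 and -0.05. They are the housekeeping hexokinase HK1 (-0.06), the glucose-6-phosphate isomerase GPI (-0.13), and PFKL (-0.05), PFKM (-0.13) and PFKP (-0.11), the liver, muscle and platelet forms of phosphofructokinase, the main controlled step. Library by library HK1 ranged between 149.8 and 182 CPM in tDR and between 152 and 179.8 CPM in Ctrl, so the groups covered the same range. GPI passed in 7 of 16 alternatives, among them without Ctrl replicate 1 (-0.19) and without tDR replicate 3 (-0.16). After correction for exon length and GC content GPI (-0.22), PFKL (-0.21), PFKM (-0.18) and PFKP (-0.16) passed, and after correction for gene span and GC content HK1 (-0.14), GPI (-0.16), PFKL (-0.18) and PFKP (-0.21) passed. Of the hexokinase, phosphofructokinase and enolase pairs compared within each library (HK2 to HK1, PFKP to PFKL, PFKM to PFKL and ENO2 to ENO1), none had a ratio that separated the groups.

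**Figure D3:**
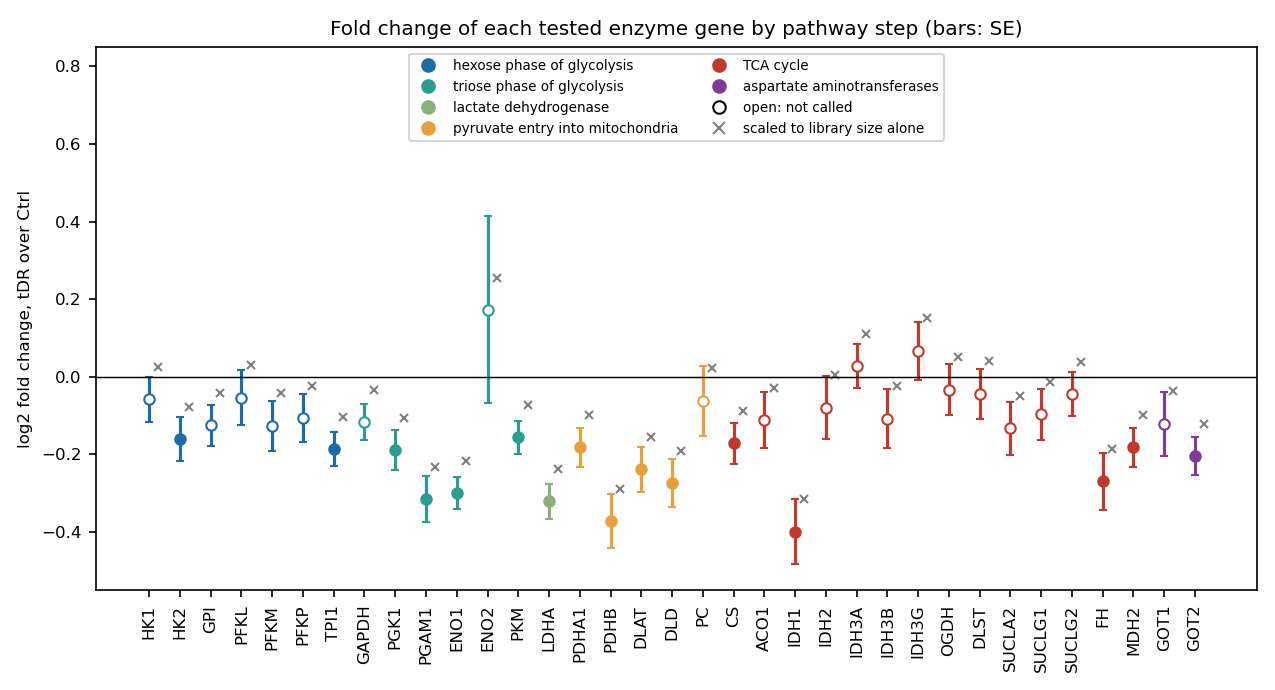
Log2 fold change (tDR over Ctrl) with SE for the 35 tested genes in pathway order; filled circles passed (adjusted p under 0.05), open circles did not, and crosses give the value with library size alone. Filled circles are frequent from PGK1 to DLD and absent among the IDH3, OGDH, DLST and succinyl-CoA ligase genes. Of all tested genes 11.4% were called lower, and of the 4296 most abundant 31.6% were.

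The catalytic subunits of pyruvate dehydrogenase were all lower. This complex links glycolysis to the TCA cycle. All 4 of its genes on the list fell, and all 4 had groups that did not overlap. They lie among the 4296 most abundant tested genes. Of those, 31.6% were called lower and 29.3% had all tDR libraries below all Ctrl libraries. PDHB (chromosome 3, 58427630 to 58433857), the beta subunit of the E1 component, stood at 86.7, 73.0, 83.1 and 68.0 CPM in tDR and at 112, 98.8, 95.7 and 93.3 CPM in Ctrl. The highest tDR value was below the lowest Ctrl value although both groups were spread, with a log2 fold change of -0.37 ± 0.070 (SE; edgeR adjusted p = 5.03e-05). DLD (chromosome 7, 107890970 to 107931730), the E3 dehydrogenase that the complex shares with 2-oxoglutarate dehydrogenase, had 96.2, 99.6, 97.3 and 93.9 CPM in tDR and 131, 118, 109 and 109.6 CPM in Ctrl. The tDR libraries lay close together and Ctrl replicate 1 was the highest (log2 fold change -0.27 ± 0.062, SE; edgeR adjusted p = 0.000626).

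DLAT, the E2 acetyltransferase at the core of the complex, had 98.7, 99.4, 97.3 and 95.2 CPM in tDR and 111, 117, 114 and 119 CPM in Ctrl (log2 fold change -0.24 ± 0.059, SE; edgeR adjusted p = 0.00173). PDHA1, the alpha subunit of E1, averaged 219 ± 7.14 CPM in tDR and 248 ± 15.5 CPM in Ctrl (SD, n = 4 each; log2 fold change -0.18, edgeR adjusted p = 0.00543). The PDHA1 call ended with library size alone (-0.10) and with background subtracted (-0.13), while those of PDHB, DLD and DLAT were kept in all 16 alternatives. PDHX, the E3-binding protein of the complex and not one of the 39 genes, was at -0.02 (edgeR adjusted p = 0.805), and its sign turned with library size alone (0.06). PC, pyruvate carboxylase, which refills the cycle with oxaloacetate, ranged between 35.2 and 41.4 CPM in tDR and between 35.8 and 43.2 CPM in Ctrl. Its log2 fold change was -0.06 (edgeR adjusted p = 0.666), 0.02 with library size alone, and -0.23 and called after correction for gene span and GC content.

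Of the 14 tested genes listed under the TCA cycle 4 fell (28.6%) and 10 did not pass. Of all tested genes 11.4% were called lower. Of the 4296 most abundant, which include 9 of these 14, 31.6% were. IDH1 (chromosome 2, 208236227 to 208266074), the cytosolic NADP-dependent isocitrate dehydrogenase, had the lowest fold change of the 35. It stood at 38.4, 46.3, 38.7 and 38.1 CPM in tDR and at 56.4, 50.5, 51.5 and 54.1 CPM in Ctrl, with no overlap and with tDR replicate 2 nearest to the controls. The log2 fold change was -0.40 ± 0.084 (SE; edgeR adjusted p = 0.000288). Its mitochondrial counterpart IDH2 averaged 49.5 ± 3.81 CPM in tDR and 52.2 ± 3.99 CPM in Ctrl (SD, n = 4 each; log2 fold change -0.08, edgeR adjusted p = 0.513). Within each library the ratio of IDH1 to IDH2 counts, which needs no scaling, was 0.780, 0.843, 0.835 and 0.803 in tDR and 1.195, 0.928, 1.01 and 0.963 in Ctrl. This was the single ratio of the 7 isoenzyme or subunit pairs compared in which the groups did not overlap.

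FH, fumarase, had 54.2, 55.2, 50.9 and 56.2 CPM in tDR and 62.0, 65.6, 71.2 and 63.3 CPM in Ctrl (log2 fold change -0.27 ± 0.074, SE; edgeR adjusted p = 0.00532). All tDR libraries were below all Ctrl libraries, but the call ended after correction for exon length and GC content (-0.15) and with library size alone (-0.19). MDH2, the mitochondrial malate dehydrogenase that closes the cycle, averaged 201 ± 10.4 CPM in tDR and 228 ± 10.1 CPM in Ctrl (SD, n = 4 each; log2 fold change -0.18, edgeR adjusted p = 0.00607). Citrate synthase, CS, which opens it, averaged 177 ± 10.97 CPM in tDR and 199 ± 10.8 CPM in Ctrl (-0.17, edgeR adjusted p = 0.0137), and its groups overlapped by 1 library, tDR replicate 1 at 188 CPM against Ctrl replicate 1 at 187 CPM. The MDH2 and CS calls ended with library size alone (-0.10 and -0.09) and with background subtracted (-0.13 and -0.12), and that of CS also without Ctrl replicate 4 or without tDR replicate 2 or 4 (-0.15 each).

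The steps in the middle of the cycle did not pass. The NAD-dependent isocitrate dehydrogenase is built from IDH3A (log2 fold change 0.03), IDH3B (-0.11) and IDH3G (0.07). The 2-oxoglutarate dehydrogenase complex takes OGDH (-0.03) and DLST (-0.04) as its E1 and E2 components. Succinyl-CoA ligase has SUCLG1 (-0.10) as its shared alpha subunit and SUCLA2 (-0.13) and SUCLG2 (-0.05) as its ATP- and GTP-forming beta subunits. SUCLA2 passed in 1 alternative, the correction for gene span and GC content (-0.21). IDH3A, for one, had 129.9, 123, 130.0 and 124 CPM in tDR and 121, 133, 119 and 124 CPM in Ctrl, so the groups were interleaved. DLST had 109, 106, 106 and 101 CPM in tDR and 94.8, 122, 100.4 and 117 CPM in Ctrl, with the tDR libraries inside the range of the controls. The signs of IDH3A, OGDH, DLST and SUCLG2 turned under some alternatives. ACO1, the cytosolic aconitase that also acts as an iron-regulatory protein, was at -0.11 (edgeR adjusted p = 0.261).

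GOT1 and GOT2, the cytosolic and mitochondrial aspartate aminotransferases, work with the malate dehydrogenases to carry NADH into mitochondria. GOT2 had 205, 202, 186 and 194 CPM in tDR and 219, 223, 233 and 231 CPM in Ctrl. The groups did not overlap (log2 fold change -0.20 ± 0.050, SE; edgeR adjusted p = 0.00174), and the call ended with library size alone (-0.12). GOT1 ranged between 41.7 and 45.2 CPM in tDR and between 44.0 and 50.8 CPM in Ctrl (log2 fold change -0.12, edgeR adjusted p = 0.297).

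Genes on both sides of the pathway were lower, and how the sides compare depended on the length and GC correction. Of 14 tested glycolytic genes 7 were lower (50.0%), with a median log2 fold change of -0.14, and of 21 tested genes on the mitochondrial side 9 were lower (42.9%), with a median of -0.12. With library size alone the counts were 3 and 4 and the medians -0.06 and -0.04. With exon length and GC content corrected for, 12 glycolytic genes and 8 on the mitochondrial side were lower, with medians of -0.18 and -0.14. With gene span in place of exon length 12 and 11 were, with medians of -0.18 and -0.145. Over all genes the exon-length correction called 2184 lower and 2335 higher. The gene-span correction called 2413 lower and 1806 higher, against 1962 and 2206 without correction. Of the 14 tested glycolytic genes 13 lie among the 4296 most abundant tested genes, of which 31.6% were called lower. Of the 21 on the mitochondrial side 14 do. The difference between the sides in these counts was not tested, nor was the part of level in it. Summed glycolytic counts took 0.530%, 0.523%, 0.522% and 0.509% of all counts in tDR libraries 1 to 4, and 0.543%, 0.579%, 0.563% and 0.573% in Ctrl libraries 1 to 4. The groups did not overlap, the nearest pair being the 2 replicates numbered 1 (Wilson 95% interval 0.524% to 0.536% in tDR and 0.539% to 0.548% in Ctrl, counting error only). The mitochondrial sum took 0.213%, 0.214%, 0.211% and 0.209% in tDR and 0.219%, 0.227%, 0.220% and 0.224% in Ctrl, again with no overlap. The ratio of the 2 sums was 2.49, 2.44, 2.47 and 2.43 in tDR and 2.48, 2.55, 2.56 and 2.56 in Ctrl, and here the groups overlapped because Ctrl replicate 1 lay among the tDR libraries. ENO1, PKM, GAPDH and TPI1 made up 69.8% of the glycolytic counts, so the sum mostly follows these 4 genes.

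**Figure D4:**
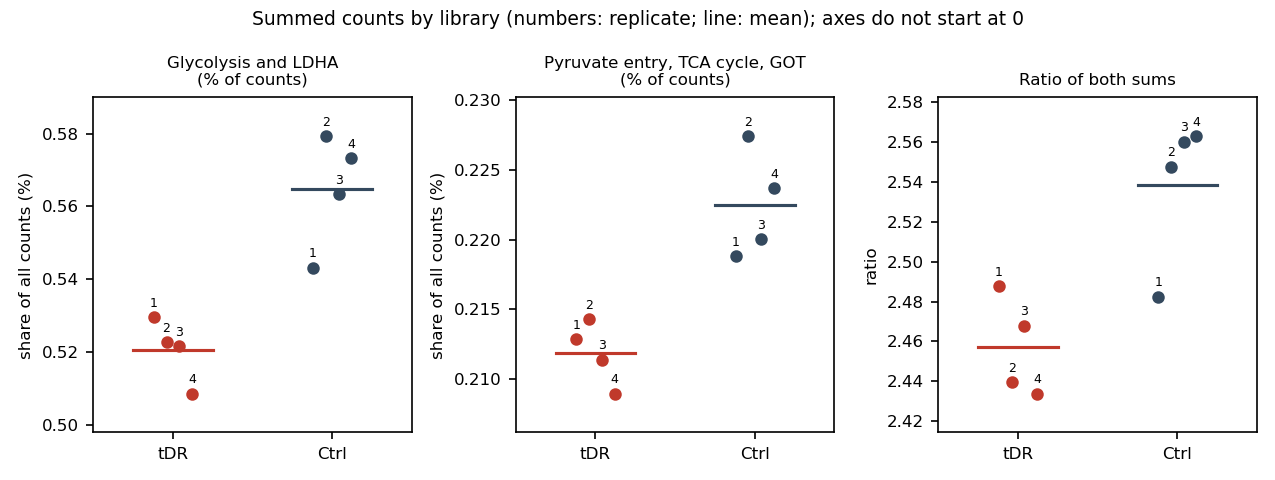
Summed counts of the glycolytic genes and of the mitochondrial side as a percent of all counts, and the ratio of both sums, by library (numbers give the replicate, lines the group mean). Both shares are lower in all 4 tDR libraries than in all 4 Ctrl libraries (means 0.521% and 0.565% for glycolysis, 0.212% and 0.222% for the mitochondrial side, tDR first), while the ratios overlap at Ctrl replicate 1.

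Between genes, levels were compared as CPM per kb of exon, averaged over the 8 libraries. GAPDH was the highest at 319, followed by TPI1 (237), ENO1 (231), PKM (118) and LDHA (85.9). TPI1 and ENO1 averaged 221 ± 7.95 and 207 ± 6.14 in tDR, where the gap exceeded either SD, and 252 ± 9.12 and 254 ± 5.63 in Ctrl, where it did not (SD, n = 4 each). With the longest transcript as the length ENO1 (478) came before TPI1 (362). On the mitochondrial side MDH2 (59.0), GOT2 (56.2), PDHA1 (51.9) and SUCLG2 (41.1) were the highest, and PC (6.58), SUCLA2 (8.60), ACO1 (9.04) and IDH1 (9.90) the lowest. The order depends on the length used: per kb of the longest transcript ACO1 (9.15) and PC (9.31) were the lowest, SUCLA2 stood at 23.1 and IDH1 at 19.15, and CS (61.6) was above SUCLG2 (54.0). Among the phosphofructokinases the level was 21.1 for PFKP, 11.96 for PFKM and 8.48 for PFKL.

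**Figure D5:**
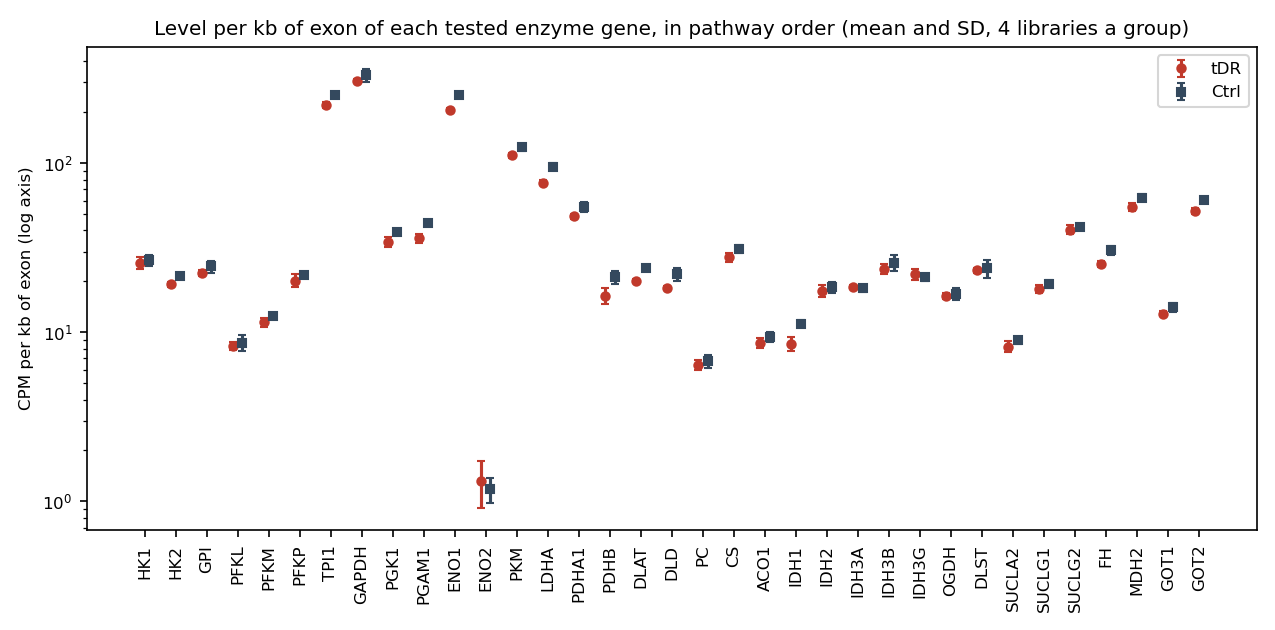
CPM per kb of exon (log axis) of the 35 tested genes in pathway order, as mean and SD of 4 tDR libraries (circles) and 4 Ctrl libraries (squares). Levels span a range between ENO2 (1.25 on average) and GAPDH (319), far wider than the difference between tDR and Ctrl in any of the genes.

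The 4 genes without a test were ALDOA, the main aldolase, its brain form ALDOC, LDHB, the lactate dehydrogenase subunit common in heart, and MDH1, the cytosolic malate dehydrogenase. Summed over the 8 libraries they had 4, 0, 12 and 0 counts. In GENCODE 29, 99.4% of ALDOA and all of ALDOC (100%) lie within another protein-coding gene on the same strand, LDHB is covered for 18.3% of its span by one, and MDH1 lies wholly within WDPCP on the opposite strand. The sources used here do not say how reads in shared stretches were counted, and whether the overlap led to the low counts was not tested. SDHA, a gene every respiring cell uses, was also at 0. The low counts therefore set no limit on the level of these genes, and the LDHA to LDHB, ALDOC to ALDOA and MDH1 to MDH2 ratios could not be formed. PGK1, CS and GPI overlap same-strand genes over 63.9%, 50.5% and 14.2% of their spans, so their counts may be partial in all libraries. DLD and IDH3G share 19.5% and 11.5% of their spans with genes on the other strand, and the strand setting of the counting is not given.

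Around the 39 enzymes, 61 further genes of the same metabolism were counted, of which 47 were tested, 10 fell and 1 rose (21.3% lower, against 11.4% of all tested genes). Of the 47, 18 lie among the 4296 most abundant tested genes, of which 31.6% were called lower and 4.75% higher. With DESeq2 16 fell and 1 rose, with library size alone 5 fell and 1 rose, and with background subtracted 4 fell and 1 rose. Over all genes these settings gave 2184 lower and 1441 higher, 907 lower and 3295 higher, and 1095 lower and 1116 higher. In the pentose phosphate pathway, which draws glucose 6-phosphate off glycolysis, 4 of 7 fell. TKT, the transketolase that returns sugars to glycolysis, averaged 252 ± 13.9 CPM in tDR and 316 ± 19.9 CPM in Ctrl (SD, n = 4 each; log2 fold change -0.33, edgeR adjusted p = 1.2e-06). RPIA, the ribose 5-phosphate isomerase, was at -0.33 (edgeR adjusted p = 0.0033), PGD at -0.19 and TALDO1 at -0.15. The PGD and TALDO1 calls ended with library size alone (-0.10 and -0.06) and with background subtracted (-0.13 and -0.09), and that of TALDO1 also without any 1 of 5 libraries (-0.12 to -0.15: Ctrl replicates 2 and 4, tDR replicates 1, 3 and 4).

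Of 11 tested transporters and shuttle carriers 4 fell and 1 rose. SLC16A1, which exports lactate and imports pyruvate, averaged 269 ± 16.3 CPM in tDR and 315 ± 20.2 CPM in Ctrl (SD, n = 4 each; log2 fold change -0.23, edgeR adjusted p = 0.000415). SLC25A12, the aspartate-glutamate carrier of the malate-aspartate shuttle, was at -0.28 (edgeR adjusted p = 0.00295), and its sister carrier SLC25A13 at -0.15 did not pass (edgeR adjusted p = 0.0518). SLC25A13 passed in 6 of 16 alternatives (-0.17 to -0.19), among them DESeq2, no filter, gene span with GC content, and without Ctrl replicate 2 or tDR replicate 1 or 4. SLC25A11, the malate carrier of the same shuttle, was at -0.31, and its call ended without tDR replicate 4 (-0.26) and with background subtracted (-0.26). MPC1, a subunit of the mitochondrial pyruvate carrier, was at -0.25; its call ended with library size alone (-0.17), background subtraction (-0.20) and both corrections for length and GC content (-0.10 for exon length and -0.18 for gene span). SLC2A3, a high-affinity glucose transporter, rose by 0.98 on the log2 scale with 5.76, 4.38, 6.22 and 4.82 CPM in tDR and 3.61, 2.57, 2.702 and 1.87 CPM in Ctrl, a low level at which background could be as much as 12.9% of its counts.

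Among 11 tested further isoenzymes and subunits of the same steps, SDHB of succinate dehydrogenase fell (-0.18; edgeR adjusted p = 0.0191) and 0 rose (0 also at an unadjusted p under 0.05 and by DESeq2). SDHB lost its call with library size alone (-0.09), with background subtracted (-0.13), after correction for exon length and GC content (-0.10) and without tDR replicate 3 (-0.14). Of 10 tested switches of flux, such as the kinases of pyruvate dehydrogenase and the makers of fructose 2,6-bisphosphate, PDK3 fell (-0.17; edgeR adjusted p = 0.0283) and the other 9 did not pass. The PDK3 call ended with library size alone (-0.09), with background subtracted (-0.12), after correction for exon length and GC content (-0.14), and without Ctrl replicate 3 or 4 (-0.17 each) or tDR replicate 1 or 3 (-0.16 each). Of 8 tested bypass, refilling and export enzymes 0 passed in either direction by edgeR (3 lower and 0 higher at an unadjusted p under 0.05, and 3 lower and 0 higher by DESeq2).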

How the data were processed

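The authors deposited 1 table of raw read counts per gene for the 8 libraries. Per the submitters' processing notes the tools were cutadapt 2.10, FastQC 0.11.9, STAR 2.7.8a, featureCounts 2.0.2 and DESeq2 1.30.1, with the builds GRCh38.p13 and hg38. The kit was a stranded total RNA kit, per the labels' protocols, and the strand and overlap settings of the counting are not stated. Coordinates, lengths and overlaps are from GENCODE 29 on GRCh38, which held 56986 of the 60606 genes (94.0%).

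Counts were tested with edgeR 4.0.16 (R 4.3.3; filterByExpr, TMM, quasi-likelihood F test, 17184 genes), tDR over Ctrl, with a threshold of 0.05 on the Benjamini-Hochberg adjusted p. CPM values are scaled by TMM. SE is of the log2 fold change, SD is between libraries. Intervals cover counting error only, and the labels name no molecular identifiers. The test was tried on simulated counts for 17184 genes, with 50 genes changed at each fold. It recovered 56% of genes changed by 1.3 times, 56% at 1.5 times, 86% at 2 times and 94% at 3 times. Of its calls 4.58% were false. The counts were drawn with the spread that edgeR fitted to these libraries. Far more genes were called in the data (1962 lower and 2206 higher), so these rates need not hold for the real calls. No fold below 1.3 was simulated, and most called members changed by less.

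Alternatives were library size alone, DESeq2 1.42.0, no filter on low counts, a replicate block, correction for exon length or gene span with GC content (mgcv 1.9.3), exon length and GC content with the block, subtraction of a background estimated from olfactory receptor genes, and each library left out. Values by library were given for up to 12 called genes with the smallest p, called genes that rose, GAPDH and isoenzyme pairs with separate ratios, and for up to 2 called genes with the smallest p in each further list. ENO2, IDH3A, DLST, PDHX, SLC25A13, SLC2A3, MPC1, SLC25A11, PGD, TALDO1 and the uncalled genes given in full fall outside this rule and were chosen after their values were seen. The members and lists were chosen with earlier results of these data known. Some genes of the further lists are not reported here and are left out of the counts.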

Additional observations from a re-analysis of the deposited data

Results flagged for a closer look

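Among 90 groups of 4 libraries examined (the 35 tested members, the summed shares with their ratio, and the 7 isoenzyme or subunit ratios, tDR and Ctrl each on their own), 5 had 1 library far from the other 3 by Dixon's test, which chance gives in about 1 of 20 groups. PGK1 stood at 225.4 CPM in Ctrl replicate 2, above the other controls. PKM stood at 994.8 CPM in Ctrl replicate 1, below the other controls. IDH1 stood at 46.29 CPM in tDR replicate 2, above the other tDR libraries and still below all controls. IDH3G stood at 52.65 CPM in tDR replicate 1 and SUCLA2 at 65.53 CPM in tDR replicate 4, each below the other tDR libraries. The calls of PGK1, PKM and IDH1 held without the library named, and IDH3G and SUCLA2 did not pass with or without it.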

How the results depend on the processing

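With library size alone 7 members were lower (3 glycolytic, 4 mitochondrial; 5 further genes), and the medians were -0.0430 over all members, -0.0579 for glycolysis and -0.0380 for the mitochondrial side. With background subtracted 10 members were lower (4 of them glycolytic), and 4 further genes, with medians of -0.0774, -0.0881 and -0.0774. Calls over all genes fell too, to 1095 lower and 1116 higher, against 1962 and 2206. The estimated background was 0.137, 0.181, 0.197 and 0.231 counts per kb of gene span in tDR libraries 1 to 4. In Ctrl libraries 1 to 4 it was 0.144, 0.151, 0.0908 and 0.144. These values are not scaled to the library totals, which averaged 7437000 in tDR and 8725500 in Ctrl. The part of this difference in the calls was not tested. The correction for exon length and GC content, with or without the replicate block, gave 12 lower glycolytic genes and a median of -0.18, beside 8 mitochondrial genes and -0.14. Over all genes it gave 2184 lower and 2335 higher without the block. Gene span in place of exon length, an alternative chosen after seeing the data, gave 12 and -0.18 beside 11 and -0.145. Over all genes it gave 2413 lower and 1806 higher. The mitochondrial median was -0.155 with no filter and -0.154 with DESeq2, which called 16 further genes lower. Further genes called higher were 2 after correction for exon length and GC content, with or without the block, against 1 otherwise. Leaving out 1 library each gave glycolytic medians of -0.18 to -0.14 and mitochondrial medians of -0.16 to -0.12; the cause of these moves was not tested. Same-numbered libraries did not deviate together (r -0.098, 0.066, 0.0065 and 0.033), though a small effect shared by number could go unseen. With the replicate block 16 members were lower with a median of -0.13. Signs turned in genes that did not pass: with library size alone HK1 0.0246, PFKL 0.0295, PC 0.0219, IDH2 0.00403, OGDH 0.0498, DLST 0.0393, SUCLG2 0.0382 and PDHX 0.0582; with no filter and DESeq2 IDH3A -0.00695 and -0.00601; with background subtracted OGDH 0.00623, DLST 0.00945 and PDHX 0.0188; after correction for exon length and GC content SUCLG2 0.0529 and PDHX 0.0325, and 0.0502 and 0.0344 with the block. Left-out libraries put IDH3A between -0.00789 and 0.04998, DLST between -0.114 and 0.00537 and PDHX between -0.0595 and 0.00992. At this depth ENO2 could not show a change of the size seen in ENO1, its SE being 0.24.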
